A study of Mus musculus with 10 samples.

Results

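The genes for 10 alpha subunits of heterotrimeric G proteins were followed through RNA sequencing of pooled mouse vagal sensory neurons: Gnas, Gnal, Gnai1, Gnai2, Gnai3, Gnao1, Gnaz, Gnaq, Gna11 and Gna14. They were picked by symbol from the 24421 gene rows of the count files, and all 10 were found. The list was chosen with measured values of these same pools known, so the differences between groups for the 10 genes are given as description, with no p-value. For comparison, the files hold 6 further alpha subunit genes (Gna12, Gna13, Gna15, Gnat1, Gnat2 and Gnat3).

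The data came from 10 pools of hand-picked neurons in 5 groups of 2 pools. In the Trpv1 selection, neurons of Trpv1-tdTomato mice, in which Cre driven by Trpv1 switches on a red reporter from the ROSA26 locus, were collected by fluorescence. This selection has Trpv1-tdTomato-positive nodose pools (30 cells each), Trpv1-tdTomato-positive jugular pools (30 cells each) and Trpv1-tdTomato-negative nodose pools (15 cells each), all from the same 2 mice. A Cre reporter of this kind also labels cells that used the Trpv1 promoter only earlier in life. In the capsaicin selection, neurons of C57BL/6 mice were picked after a calcium assay. The capsaicin-selected nodose pools (14 and 15 cells) had responded to 10 μM α,β-methylene-ATP, a P2X receptor agonist, and to 1 μM capsaicin, the TRPV1 agonist, whereas the capsaicin-selected jugular pools (15 and 16 cells) had responded to capsaicin alone. No drug treatment besides this assay is given for any group, and the age of the mice is not given in the sources used here. Which mouse each pool came from is not given in the sources used here, so the spread between 2 pools may be partly technical. The selections also differ in strain, sequencing core and depth, so these cannot be told apart.

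An alpha subunit holds GDP at rest, exchanges it for GTP when a G protein-coupled receptor is activated, and separates from the beta and gamma subunits to act on effectors. Gs proteins (Gnas, and Gnal for the olfactory form) stimulate adenylyl cyclase, and Gi/o proteins (Gnai1, Gnai2, Gnai3, Gnao1 and Gnaz) inhibit it or act through the freed beta-gamma dimer. Gq proteins (Gnaq, Gna11, Gna14) activate phospholipase C beta, and G12/13 proteins (Gna12, Gna13) act through guanine nucleotide exchange factors. In sensory neurons the Gs and Gq pathways are known for sensitizing the terminal to inflammatory mediators, and the Gi/o pathway for the inhibitory action of opioid and related receptors.

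The end of the alpha subunit is the part that reads the receptor. Differences in its coding bases sort the genes by class only in part. From Gnai1, the genes of the same class differ at 5 (Gnai2), 9 (Gnai3), 12 (Gnaz) and 13 bases (Gnao1). Those of other classes differ from it at 12 (Gnaq), 15 (Gna11), 16 (Gna14) and 16 bases (Gnas). Below are the last 30 coding bases, stop codon included, of 9 of the genes (reference transcripts of GENCODE on GRCm38). The codon in capitals encodes the residue 4 places from the end, which in most Gi/o proteins is the cysteine that pertussis toxin modifies.
Gnas, chr2:174346359-174346388, plus strand: atgcatctccgccaaTACgagctgctctaa
Gnai1, chr5:18267019-18267048, minus strand: aataacctaaaagacTGTggtctcttctaa
Gnai2, chr9:107615635-107615664, minus strand: aacaacctgaaggacTGTggcctcttctga
Gnai3, chr3:108109422-108109451, minus strand: aacaacttaaaggaaTGTgggctttattga
Gnao1, chr8:93967026-93967055, plus strand: aacaatctccggggcTGCggcttgtactga
Gnaz, chr10:75015183-75015212, plus strand: aacaatctcaagtacATCggcctttgctga
Gnaq, chr19:16383365-16383394, plus strand: ctgaacctgaaggagTACaatctggtctaa
Gna11, chr10:81530795-81530824, minus strand: ctgaacctgaaggagTACaacctggtgtga
Gna14, chr19:16609501-16609530, plus strand: ctaaacctacgggagTTCaacttggtgtaa
A cysteine codon (TGT or TGC) is present in Gnai1, Gnai2, Gnai3 and Gnao1, and Gnaz, whose product is known to be insensitive to the toxin, has ATC there. In this stretch Gna11 differs from Gnaq at 3 bases and Gna14 differs from Gnaq at 8. The genes can also be told apart by their reads: of all 50-base windows of the reference transcript, the read length used here, 0.179% of those of Gnaq and none of those of 8 other members occurred in a transcript of another gene. The exception was Gnas, with 32.3% of its windows also in the overlapping model Gm20721 on the opposite strand, which has no row in the files.

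Of the members, 6 have another alpha subunit gene as a neighbour. Gnaq and Gna14 are neighbours on chromosome 19 in the same orientation, 48298 bases apart. Gnai1 lies beside Gnat3 (245300 bases apart), Gnai2 beside Gnat1 (39106 bases), Gnai3 beside Gnat2 (5847 bases) and Gna11 beside Gna15 (4498 bases). These 4 partners, the transducin alpha subunits of photoreceptors, gustducin of taste cells and the hematopoietic Gna15, had 0 counts in all 10 pools.

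The depth was 148452506 to 167704327 counts per pool for the Trpv1 selection, against 17666710 to 30810863 for the capsaicin selection. Levels are CPM, counts over a size factor for each pool and scaled to a common total. A level of 3 counts, the smallest that was told from 0, came to 0.0116 to 0.0154 CPM within the Trpv1 selection, against 0.118 to 0.176 CPM within the capsaicin selection. The labels were set beside lists of marker genes. These lists were chosen with earlier results of these data known, so they are no independent check. Trpv1 was at 118 to 202 CPM in the positive nodose pools, at 17.8 and 25.8 CPM in the positive jugular pools and at 0.0334 and 0.0348 CPM in the negative pools. Trpa1 was likewise at 0.0193 CPM or less in the negative pools, but the sodium channel genes Scn10a (163 and 108 CPM) and Scn11a (57.9 and 82.7 CPM), from the same list of capsaicin-sensitive neurons, were not low there. Of the nodose markers, P2rx2 was at 61.4 to 548 CPM in nodose pools and at most 0.235 CPM in jugular pools, and Hoxb5 at 233 to 417 CPM against at most 0.196 CPM. The summed jugular markers Prdm12, Tac1 and Gfra3 were at 332 to 1304 CPM in jugular pools and at most 1.25 CPM in nodose pools. Of 8 immune cell markers, Ptprc, Aif1, Csf1r, C1qa and C1qb had 0 counts in all pools, while Cd68 reached 75.7 CPM, Cx3cr1 11.7 CPM and Cd74 10.8 CPM. Their summed level was 20.9 to 25.4 CPM in the positive nodose pools, 1.09 to 6.15 CPM in the other pools of that selection and 0.125 to 76.7 CPM in the capsaicin-selected pools. Of 12 markers of satellite glia and Schwann cells, 9 to 12 had more than 3 counts in each group. Their summed level was 3000 to 4052 CPM within the Trpv1 selection, against 1597 to 2204 CPM within the capsaicin selection, while Sox10 was at 0 counts in the capsaicin selection and Erbb3 had counts in 1 pool only. Most of the sum in the Trpv1 selection was Apoe (2041 to 3079 CPM, against 63.3 to 271 CPM), and Pmp22 had the opposite order (144 to 296 CPM, against 914 to 1391 CPM).

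**Figure D1:**
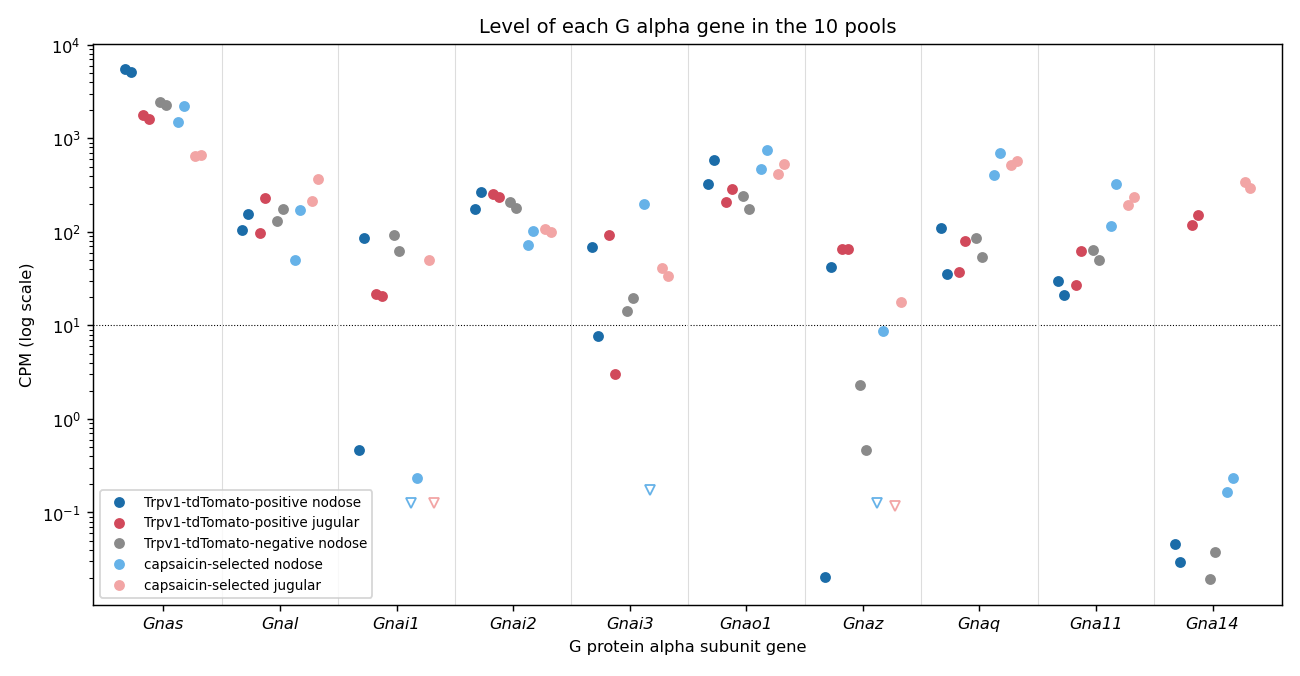
Level of the 10 G alpha genes in each pool, in CPM on a log axis. Each point is 1 pool and colours are the 5 groups. Open triangles are pools at 0 counts, drawn at the level of 3 counts, and the dotted line is 10 CPM. Gna14 is at 120 to 343 CPM in the 4 jugular pools and at 0.234 CPM or less in the 6 nodose pools, and Gnas is higher in nodose than in jugular pools within each selection.

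A level of 10 CPM was reached in all 10 pools by 6 of the members (Gnas, Gnal, Gnai2, Gnao1, Gnaq and Gna11). The other 4 (Gnai1, Gnai3, Gnaz and Gna14) reached it in 6, 7, 4 and 4 pools. Only for Gna14 did the pools above and below 10 CPM follow the ganglion. For Gnai1, Gnai3 and Gnaz they split within groups: replicate pools were 10-fold or more apart in 6 of the 44 combinations of member and group in which at least 1 pool reached 10 CPM, and all 6 were of these genes. Over all genes, 30.2% of such combinations were that far apart. Of the 6443 genes counted for the capsaicin-selected nodose pools, 52.4% were.

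Gna14 gave the clearest separation of the ganglia. Its product is a Gq protein with a narrower tissue range than those of Gnaq and Gna11. In the Trpv1 selection, the positive jugular pools had 120 and 152 CPM (27888 and 37533 counts), against 0.0463 and 0.0294 CPM (9 and 6 counts) in the positive nodose pools. The capsaicin-selected jugular pools had 343 and 293 CPM (8752 and 7017 counts), against 0.167 and 0.234 CPM (4 and 4 counts) in the capsaicin-selected nodose pools. The Trpv1-tdTomato-negative nodose pools were as low as the positive ones, at 0.0193 and 0.0376 CPM (5 and 9 counts). Every jugular pool was thus above every nodose pool, by 3587-fold between the group means of the Trpv1 selection and by 1587-fold between those of the capsaicin selection. The fitted log2 fold change, nodose over jugular, was -11.80 (SE 1.06, n = 2 against 2) in the Trpv1 selection, -10.96 (SE 1.11) in the capsaicin selection and -11.34 (SE 0.909, n = 4 against 4) over both with selection as a covariate. These fitted values rest on the few nodose counts given above.

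Gnas was the member with the opposite direction. It encodes the stimulatory Gs alpha subunit, and the same locus also makes the XLas, Nesp55 and A/B products from other first exons, which counts per gene cannot separate. The positive nodose pools had 5458 and 5067 CPM and the positive jugular pools 1772 and 1631 CPM. The capsaicin-selected nodose pools had 1490 and 2228 CPM and the capsaicin-selected jugular pools 644 and 664 CPM. The negative nodose pools, with 2451 and 2273 CPM, lay between the positive nodose and the positive jugular pools. No groups overlapped within a selection, and the means were 3.09 times as high in nodose as in jugular neurons in the Trpv1 selection, 2.84 times in the capsaicin selection, and 2.23 times as high in positive as in negative nodose neurons. The capsaicin value depends on the scale: as a share of all counts, Gnas had 0.16% and 0.124% in those nodose pools, against 0.0741% and 0.0901% in the jugular pools, and the fitted log2 fold change went down to 0.78 among the alternatives. The log2 fold changes fitted by edgeR, the main tool, were 1.62 (SE 0.098), 1.13 (SE 0.456) and 1.18 (SE 0.123) for these 3 comparisons. For nodose over jugular in both selections it gave 1.42 (SE 0.172). DESeq2, the other tool used, gave similar sizes with much larger SE. Its values were 1.66 (SE 1.42) for nodose over jugular in the Trpv1 selection and 1.24 (SE 1.37) for positive over negative nodose neurons. The positive nodose pools stood apart in another measure, with 8.537% to 10.34% of their counts on the ribosomal RNA gene Rn45s against 2.652% to 3.384% in the other pools of that selection, and the summed immune cell markers were also highest there within that selection, as given above; the part of both in the difference was not tested. The antisense gene Nespas, which overlaps Gnas, had 9 counts in 1 positive nodose pool and 0 in the other 9 pools.

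Gnal encodes the olfactory form of Gs alpha, also used by striatal neurons. The positive nodose pools had 106 and 157 CPM, the positive jugular pools 97.1 and 231 CPM, and the negative nodose pools 131 and 174 CPM. These 3 groups overlapped. Of the capsaicin-selected pools, the nodose pools had 50.1 and 172 CPM and the jugular pools 214 and 370 CPM, without overlap, and the fitted log2 fold change was -1.85 (SE 0.872), against -0.33 (SE 0.578) in the Trpv1 selection.

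Among the Gi/o genes, Gnao1, which encodes the Go alpha subunit abundant in neurons, was at 322 and 592 CPM in positive nodose, 210 and 285 CPM in positive jugular and 241 and 174 CPM in negative nodose pools. The positive nodose pools were thus above both other groups of their selection, with log2 fold changes of 0.88 (SE 0.393) over jugular and 1.17 (SE 0.412) over negative nodose neurons. With the capsaicin selection, Gnao1 was at 466 and 743 CPM in its nodose pools, and 421 and 536 CPM in its jugular pools, which overlapped, with a log2 fold change of -0.06 (SE 0.536) although the mean level was higher in nodose pools (604 against 479 CPM). Each fit used its own TMM scaling of the pools compared, so a small fitted difference can have another sign than the levels.

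Gnai2, the widely expressed Gi form, had the narrowest range of all members over the 10 pools, 1.87 in log2(CPM + 1), against 8.40 for Gna14. It was at 176 and 269 CPM in positive nodose, 255 and 239 CPM in positive jugular and 207 and 182 CPM in negative nodose pools, and in the capsaicin selection at 72.7 and 102 CPM in its nodose pools, and 107 and 99.6 CPM in its jugular pools. The groups overlapped in each of the 3 comparisons, while the positive jugular pools were above the negative nodose pools. The log2 fold changes were -0.15 (SE 0.347), -0.62 (SE 1.03) and 0.23 (SE 0.364) for nodose over jugular in the Trpv1 and capsaicin selections and for positive over negative nodose neurons.

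Gnai1, a Gi form found in brain and sensory neurons, was at 0.463 and 86.3 CPM in the 2 positive nodose pools, at 21.6 and 20.7 CPM in positive jugular and at 92.4 and 62.4 CPM in negative nodose pools. In the capsaicin selection it was at 0 and 0.234 CPM in its nodose pools, and at 49.8 and 0 CPM in its jugular pools. Replicates of 2 groups were thus on opposite sides of 10 CPM, and the log2 fold change of the Trpv1 selection, 1.04, had an SE of 2.09. Gnai3, the third Gi form, was split in 3 groups, with 69 and 7.63 CPM in positive nodose, 92.3 and 3.02 CPM in positive jugular and 197 and 0 CPM in capsaicin-selected nodose pools. It was at 40.9 and 33.7 CPM in capsaicin-selected jugular and at 14.3 and 19.6 CPM in negative nodose pools.

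Gnaz, the Gz form of neurons and platelets, was at 65.1 and 65.5 CPM in the positive jugular pools. The positive nodose pools had 0.0206 CPM (4 counts) and 41.8 CPM, and the negative nodose pools had 2.31 and 0.471 CPM. Capsaicin-selected nodose pools had 0 and 8.78 CPM, and capsaicin-selected jugular pools had 0 and 17.8 CPM. The positive jugular pools were above all other pools, but the log2 fold change of nodose over jugular in that selection was -1.64 with an SE of 2.45.

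The other members of the Gq class were present in both ganglia. Gnaq, the neighbour of Gna14 on chromosome 19, was at 110 and 35.5 CPM in positive nodose, 37.4 and 79.9 CPM in positive jugular and 86.1 and 53.7 CPM in negative nodose pools, and in the capsaicin selection at 403 and 703 CPM in its nodose pools, and 521 and 577 CPM in its jugular pools. Gna11 was at 29.9 and 21.4 CPM in positive nodose, 27.1 and 62.6 CPM in positive jugular and 64.2 and 49.7 CPM in negative nodose pools, and in the capsaicin selection at 115 and 325 CPM in its nodose pools, and 195 and 234 CPM in its jugular pools. Nodose and jugular pools of a selection overlapped for both genes on this scale, but on plain CPM Gna11 was higher in jugular pools without overlap within both selections. Nodose over jugular, the log2 fold changes in the Trpv1 and capsaicin selections were 0.29 (SE 0.881) and -0.39 (SE 0.531) for Gnaq and -0.82 (SE 1.11) and -0.40 (SE 0.765) for Gna11. The mean levels in the capsaicin selection had the other sign, with 553 against 549 CPM for Gnaq and 220 against 214 CPM for Gna11. Gna11 was lower in positive than in negative nodose pools without overlap, with a log2 fold change of -1.13 (SE 0.893).

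**Figure D2:**
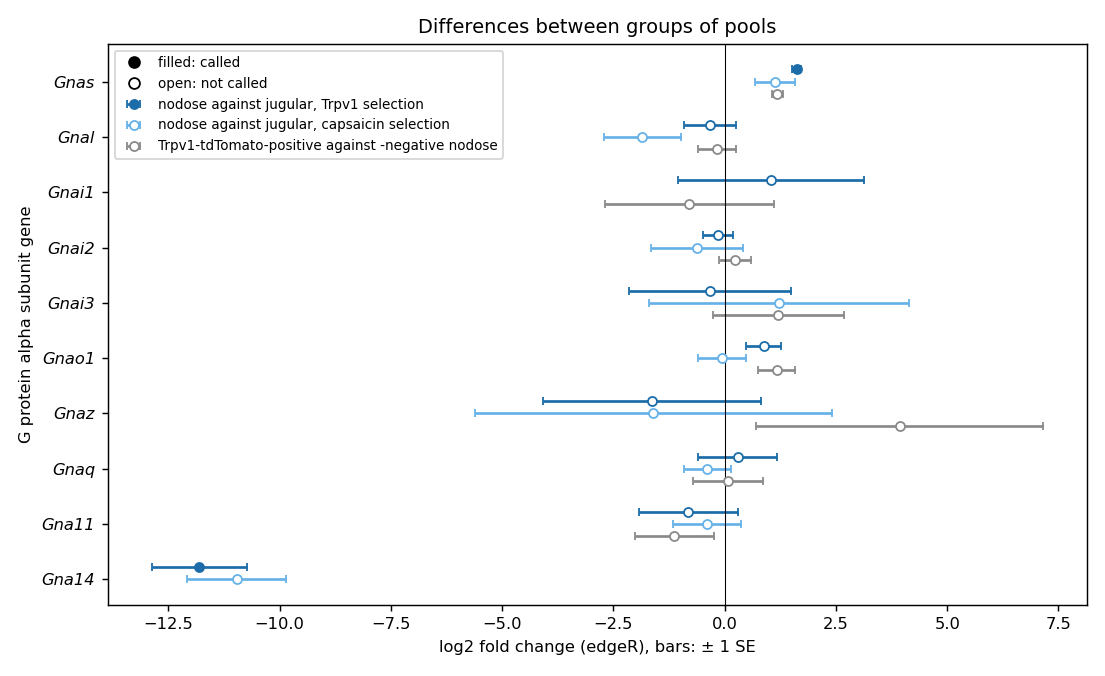
Fitted log2 fold change of each G alpha gene in 3 comparisons of 2 against 2 pools, with bars of 1 SE. Filled points passed all thresholds of the call. Gna14 lies at -11.80 and -10.96 for nodose over jugular and was not fitted for positive over negative nodose, and Gnai1 was not fitted in the capsaicin selection, since both then failed the filter on low counts. All 3 values of Gnas are above 0.

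A gene was called when the adjusted p of edgeR's quasi-likelihood test was at most 0.1, the fold change at least 2 and the CPM at least 10 in both pools of a group. Since the list was drawn up with these contrasts known, the counts of members are set beside the share of all genes called and nothing is read from them. For nodose against jugular neurons, 2 of 10 members (Gnas and Gna14) were called in the Trpv1 selection, where 0.318% of 10990 genes were called, and the same 2 in both selections together, where 0.577% of 11959 genes were. Of the capsaicin selection's genes, edgeR called 0 of 9 members and 0% of 8181 tested, of which 1150 had an unadjusted p under 0.05, 1 member (Gna14) among them. For positive against negative nodose neurons it called 0 of 9 members and 0.0527% of 11386 genes, and 2 members and 1264 of all genes had an unadjusted p under 0.05. For the interaction of ganglion and selection it called 0 of 10 members and 0% of 11959 genes, of which 1233 but no member had an unadjusted p under 0.05. Leaving out any 1 of the 4 pools of the Trpv1 selection leaves 1 group with a single pool. Calls of such fits cannot tell dependence on a pool from lost power. The log2 fold change of Gna14 in that selection stayed between -12.15 and -11.53 over all alternatives tried, and that of Gnas between 1.47 and 1.66.

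DESeq2, the authors' tool, called more genes. It called Gna14 in the Trpv1 selection (3.39% of all genes called), Gna14 in the capsaicin selection (5.81% of all genes), and Gnas and Gna14 in both selections together (7.2% of all genes). It called no member for positive against negative nodose neurons (2.55% of all genes) or for the interaction (6.87% of all genes). Without any test, pools that do not overlap can be counted among genes with at least 10 CPM in both pools of a group. Nodose pools were above jugular pools in both selections for Gnas and for 6.54% of 6985 genes, and jugular pools were above nodose pools in both for Gna14 and for 7.1% of those genes. This balance depends on the scale: nodose pools were above for 457 genes and jugular pools for 496 on the main scale, for 440 and 531 of 7343 on TMM-normalized CPM, and for 277 and 726 of 7354 on plain CPM, where Gna11 joined Gna14. Positive nodose pools were above negative ones for 2 of 8 members (Gnas and Gnao1), where 26% of 5979 genes were. The shares of all genes for the opposite order, and for nodose against jugular pools within a single selection, were not counted. Nor were those for the positive jugular pools against the negative nodose pools or against all other pools. Such separations of Gna11, Gnal, Gnao1, Gnai2 and Gnaz are therefore description only. The positive nodose pools enter this comparison and that of the Trpv1 selection, so the 2 share samples.

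Between the selections, Gnaq and Gna11 stood apart. Their levels in the 4 capsaicin-selected pools (403 to 703 CPM for Gnaq and 115 to 325 CPM for Gna11) were all above those in the 6 pools of the Trpv1 selection (35.5 to 110 CPM and 21.4 to 64.2 CPM). For 6.26% of 7504 genes the capsaicin-selected pools were likewise all above the others. Gnai2 had the opposite order, with 72.7 to 107 CPM against 176 to 269 CPM, as did 11.3% of the genes. These statements depend on the scale: Gnaq was 8.22 times as high in the mean of the capsaicin-selected pools on the scale used here, 5.90 times on TMM-normalized CPM and 5.67 times on plain CPM, and Gna11 5.12, 3.65 and 3.32 times, without overlap on any of them. Gnas was also without overlap, and lower in the capsaicin selection, on TMM-normalized and plain CPM but not on the main scale. The summed glial markers were lower in the capsaicin selection, with Pmp22 higher, as given above, and their part in these differences was not tested, and strain, core, depth and the calcium assay cannot be told apart from the selection.

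To compare members with each other, CPM was divided by the summed exon length of each gene, and each share was taken of the total over the 12 alpha subunit genes with counts. On this scale, the Gs class (Gnas and Gnal) made up 79.2% and 72% of the alpha subunit total in the positive nodose pools, 45.8% and 45.3% in positive jugular and 58.3% and 62.1% in negative nodose pools. The capsaicin-selected pools had a Gs share of 36.1% and 39.9% in nodose and 18.6% and 21.5% in jugular pools. The share of the Gs class was thus higher in nodose than in jugular pools within each selection, without overlap.

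The Gq class took the reverse order. It made up 3.99% and 1.69% in positive nodose, 7.48% and 5.91% in negative nodose and 13% and 19.7% in positive jugular pools, and 24.5% and 35.9% in nodose against 56.1% and 54.8% in jugular pools of the capsaicin selection. Within it, Gna14 alone made up 10.8% ± 1.72 (SD, n = 2) of the alpha subunit total in positive jugular and 22% ± 3.09 in capsaicin-selected jugular pools, and a mean of at most 0.0127% in a nodose group. In the positive jugular pools Gna14 (39.6 ± 6.49 CPM per kb) was above Gnaq (9.48 ± 4.86) and Gna11 (10.9 ± 6.13) per length. In the capsaicin-selected jugular pools, Gna14 (92.6 ± 10.5 CPM per kb) and Gnaq (88.7 ± 6.46) differed by less than their spread, and Gna11 was at 52.3 ± 6.58.

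The Gi/o class made up 15.5% to 38.3% of the total over the 10 pools. Its share overlapped between nodose and jugular pools in the capsaicin selection (32% and 18% against 22.9% and 21%). In the Trpv1 selection it did not (15.5% and 25.6% against 38.3% and 31.2%). The Gi/o level itself was similar there, at 132 ± 48.9 CPM per kb in positive nodose and 127 ± 17.6 in positive jugular pools. A share also depends on the other classes, and Gs was at 482 ± 21.5 against 167 ± 0.455 CPM per kb. Gnai2 had its highest mean in the Trpv1 selection, with 59 ± 17.4 CPM per kb in positive nodose, 65.4 ± 2.97 in positive jugular and 51.5 ± 4.8 in negative nodose neurons. For capsaicin-selected neurons Gnao1 had the highest mean, with 54.7 ± 17.7 CPM per kb in nodose and 43.3 ± 7.35 in jugular neurons. The G12/13 class, with Gna13 in all pools (30.2 to 213 CPM) and Gna12 at 0 to 55.9 CPM, stayed between 0.725% and 7.4%.

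**Figure D3:**
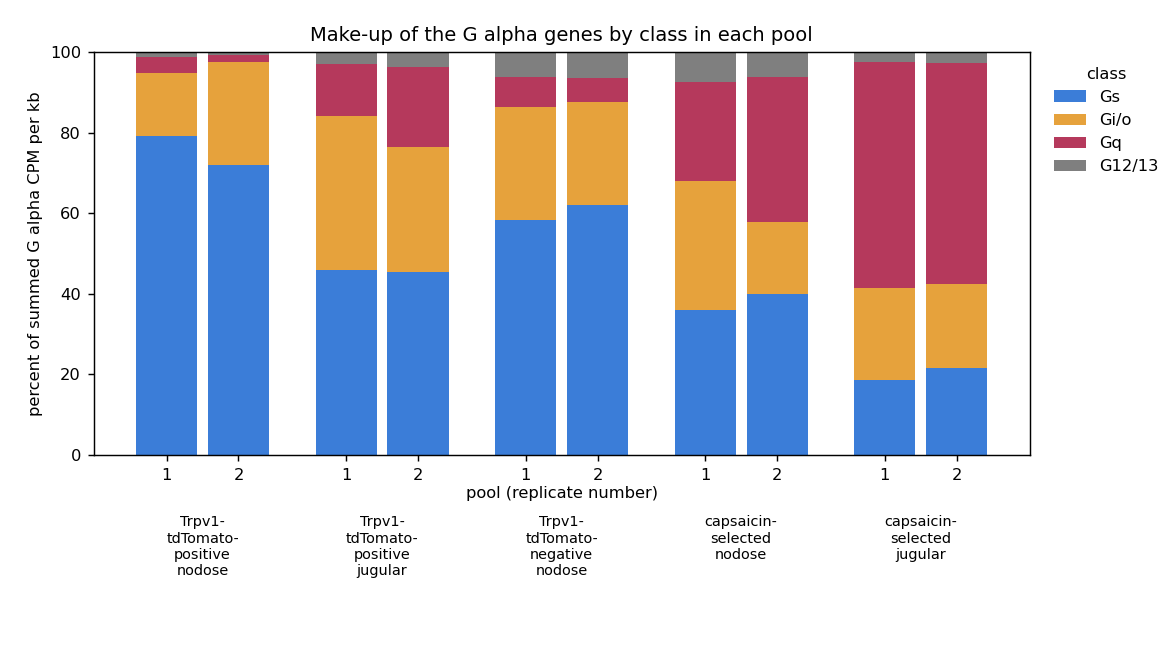
Share of the 4 classes of G alpha genes in the summed CPM per kb of exon, as stacked bars for each pool, from 0 to 100%. The Gs share is largest in the positive nodose pools (79.2% and 72%) and smallest in the capsaicin-selected jugular pools (18.6% and 21.5%), where the Gq share is largest.

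The divisor matters for Gnas, whose 24 annotated transcripts sum to 11186 bases of exon while the longest has 3947. With the longest transcript as divisor the Gs share was 84.8% ± 4.03 in positive nodose, 62.7% ± 1.03 in positive jugular, 75% ± 2 in negative nodose, 56.5% ± 1.60 in capsaicin-selected nodose and 33.8% ± 1.90 in capsaicin-selected jugular neurons (SD, n = 2 each). The order of the groups was the same. The Gq share was then 1.28% ± 0.693 in positive nodose, 8.84% ± 2.68 in positive jugular, 3.47% ± 0.607 in negative nodose, 18.2% ± 4.41 in capsaicin-selected nodose and 40.2% ± 1.32 in capsaicin-selected jugular neurons. Gna14 alone was at 5.63% ± 0.939 in positive jugular and 15.2% ± 2.45 in capsaicin-selected jugular neurons. The reads were primed from the poly(A) tail, so coverage along a transcript may be uneven and length only approximately corrects for it.

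The genes whose levels followed Gna14 most closely over the 10 pools, by Pearson's r of log2(CPM + 1) among 7504 genes, were Gm11549 (r = 0.995), Inadl (0.994), a tight junction scaffold protein, and Lpar3 (0.994), a receptor for lysophosphatidic acid. Lpar3 was at 23 and 53.3 CPM in positive jugular, 45.3 and 75.8 CPM in capsaicin-selected jugular and at most 0.0585 CPM in all 6 nodose pools. With so many genes compared over 10 pools that differ by ganglion, such values are a description only. For Gnai3, the member with the next widest range, the closest were Nifk (0.937), Mettl1 (0.928) and Rab33b (0.925), which were at 0, 0.0585 and 9.24 CPM in the second capsaicin-selected nodose pool, the pool where Gnai3 had 0 counts.

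The partners of the alpha subunits were taken as whole families. These lists were chosen with earlier results of these data known, so the adjusted p-values of their genes are given as description. Of 5 G beta genes, neither edgeR nor DESeq2 called any in any comparison, with 0 and at most 1 of them at an unadjusted p under 0.05. Gnb1, which encodes the most common beta subunit, differed between the selections more than any alpha subunit described here: it was at 119 to 263 CPM in the 6 pools of the Trpv1 selection, against 13355 and 73530 CPM in capsaicin-selected nodose pools and 22551 and 14725 CPM in capsaicin-selected jugular pools. There it held 1.43% to 4.08% of all counts, against 0.0167% to 0.0407%. Gnb2 had the opposite order, with 89.2 to 246 CPM within the Trpv1 selection, against 0 to 25.1 CPM within the capsaicin selection. Gnb1 was the higher on all 3 scales, by 79.9-fold to 143-fold between the means of the selections.

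Of 12 G gamma genes, edgeR called none in any comparison (at most 2 at an unadjusted p under 0.05). Gng3, a neuronal gamma subunit, was the most abundant by CPM, at 328 to 1194 CPM in all 10 pools, and Gng2 was at 155 to 458 CPM in 9 pools and at 0.351 CPM in the second capsaicin-selected nodose pool. DESeq2 called Gng12 lower in nodose than in jugular neurons of the capsaicin selection, at 0 and 0 CPM against 39.3 and 40.6 CPM (adjusted p = 0.000967, edgeR adjusted p = 0.352). Most of its calls over all genes in that comparison had this direction, with 604 lower and 103 higher in nodose pools. Those nodose pools had 8462 and 7889 genes with a count, against 9378 and 10010 in the jugular pools. The part of this in the calls of that comparison, here and below, was not tested.

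**Figure D4:**
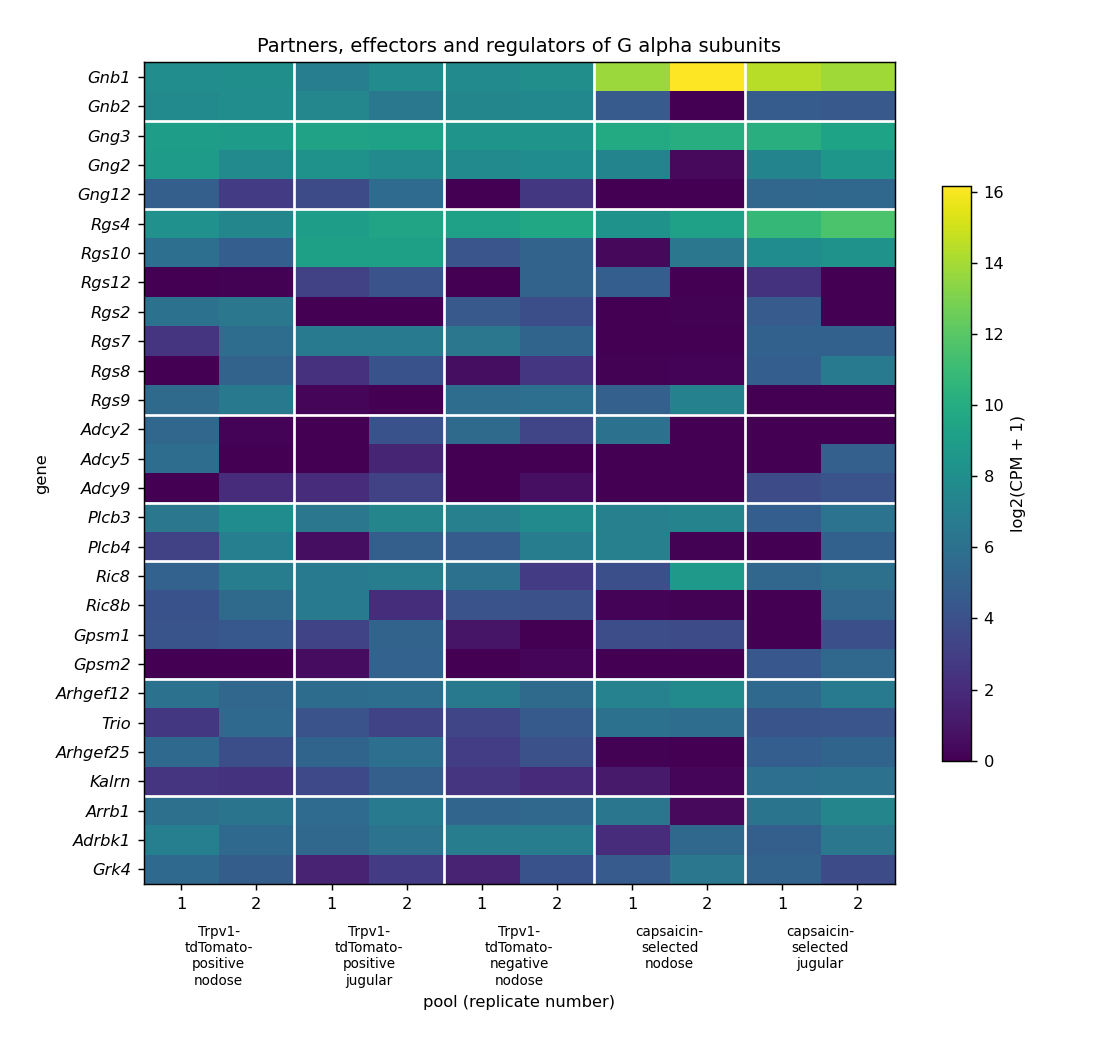
Heat map of log2(CPM + 1) of beta and gamma subunits, RGS proteins, adenylyl cyclases, phospholipase C beta, chaperones and GoLoco proteins, guanine nucleotide exchange factors, and receptor kinases and arrestins (blocks from top to bottom) in each pool. Gnb1 is at 13355 to 73530 CPM in all capsaicin-selected pools, against 119 to 263 CPM in the others, and Rgs9 is at 29.6 CPM or more in every nodose pool and at 0.168 CPM or less in every jugular pool.

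RGS proteins speed the hydrolysis of GTP by alpha subunits and so end their signal. Of the listed families of partners, effectors and regulators, the RGS family alone had calls by edgeR. These were 2 of the 16 tested genes in both selections together, where 0.577% of all genes were called. Rgs9 was higher in nodose neurons (log2 fold change 10.28, SE 1.98, adjusted p = 0.071 by edgeR), with 46.6 and 91.6 CPM in positive nodose, 53 and 59.4 CPM in negative nodose and 29.6 and 134 CPM in capsaicin-selected nodose pools. The jugular pools had 0.168, 0.0323, 0 and 0.0417 CPM, so no nodose and jugular pools overlapped. Rgs9 is best known from photoreceptors and striatum.

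Rgs4, which acts on Gi/o and Gq proteins, was lower in the nodose than in the jugular pools of the fit to both selections (log2 fold change -2.03, SE 0.412, adjusted p = 0.092 by edgeR). It was at 292 and 170 CPM in positive nodose against 505 and 683 CPM in positive jugular pools, and at 303 and 618 CPM in capsaicin-selected nodose against 1708 and 3109 CPM in capsaicin-selected jugular pools. The negative nodose pools, which are not in this fit, were at 598 and 779 CPM. They were above the positive nodose pools and overlapped the positive jugular pools, so low Rgs4 was not shared by all nodose groups. The median log2 fold change of the RGS genes in this fit was -1.03, against -0.18 for all genes tested, and -0.51 against 0.03 by DESeq2. It had different signs in the selections, at 0.50 against 0.03 for all genes in the Trpv1 selection and -1.37 against -0.02 in the capsaicin selection by edgeR.

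DESeq2 called 4 of 17 RGS genes in both selections together, where it called 7.2% of all genes. In the nodose pools fitted, 1 was higher (Rgs9) and 3 were lower (Rgs4, Rgs7 and Rgs10). Rgs10, which acts on Gi/o proteins, was at 59 and 27.2 CPM in positive nodose and 594 and 576 CPM in positive jugular pools, and in the capsaicin selection at 0.25 and 83 CPM in its nodose pools, and 236 and 312 CPM in its jugular pools (adjusted p = 0.0744 by DESeq2 and 0.329 by edgeR). Rgs2, which acts mainly on Gq proteins, was at 68.2 and 83.7 CPM in positive nodose and at 0.00861 and 0.00404 CPM in positive jugular pools, and was called by DESeq2 in the Trpv1 selection (adjusted p = 1.14e-11; edgeR 0.122). In the capsaicin selection it was at 0.0417 and 0.0585 CPM in its nodose pools, and at 24.2 and 0 CPM in its jugular pools. Rgs12 was also called by DESeq2 in the Trpv1 selection and Rgs7 and Rgs8 in the capsaicin selection, all 3 lower in the nodose pools compared. Other pools did not all follow. Rgs12 was at 27.4 and 0 CPM in capsaicin-selected nodose and 0.00386 and 34.4 CPM in negative nodose pools, against 8.26 and 16.9 CPM in positive jugular pools. Rgs8 was at 0.00515 and 34.9 CPM in positive nodose pools, against 4.01 and 15.6 CPM in positive jugular pools.

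Of the effectors, none was called by edgeR, with at most 1 adenylyl cyclase, 0 phospholipases C beta and 2 guanine nucleotide exchange factors at an unadjusted p under 0.05 in a comparison. Adenylyl cyclases, most of which are effectors of Gs and Gi/o proteins, were low: none of the 10 genes reached 10 CPM in all pools, 7 reached it in some and 3 in none. Adcy2 was at 39.4 and 0.113 CPM in positive nodose, 46.5 and 9.52 CPM in negative nodose and 65.5 and 0 CPM in capsaicin-selected nodose pools, so its replicates differed as much as its groups. Adcy5 was at 55 CPM in 1 positive nodose pool, at 29.6 CPM in 1 capsaicin-selected jugular pool and at 2.25 CPM or less in the other 8 pools. DESeq2 called Adcy9 lower in capsaicin-selected nodose than jugular pools, at 0 and 0 CPM against 11.9 and 16.7 CPM (adjusted p = 0.00435; edgeR 0.352). Phospholipase C beta, the effector of Gq proteins, was present mainly as Plcb3, at 27.3 to 231 CPM in all 10 pools, with Plcb4 at 0 to 133 CPM and Plcb2 at 0 counts in all pools, and no gene of this family was called by either tool.

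Of 6 guanine nucleotide exchange factors, Arhgef12, an effector of G12/13 proteins, was at 38.6 to 201 CPM in all 10 pools and Trio at 5.15 to 66 CPM, and neither was called. Kalrn and Arhgef25, which Gq proteins can act on, were called lower in nodose neurons by DESeq2 in the capsaicin selection (adjusted p = 0.0342 and 0.00458; edgeR 0.352 for both). Kalrn was at 1.25 and 0.176 CPM in its nodose pools, and 58.4 and 66.6 CPM in its jugular pools there, and Arhgef25 at 0.0834 and 0 CPM against 27.6 and 36.1 CPM. Among chaperones and GoLoco proteins, Ric8, the chaperone of Gi, Gq and G12/13 alpha subunits, was at 6.35 to 414 CPM, its relative Ric8b was at 0 to 105 CPM, and Gpsm2 was called lower in nodose neurons by DESeq2 in both selections together (adjusted p = 1.34e-09; edgeR 0.257). Gpsm2 was at 0.146 CPM or less in all 6 nodose pools and at 0.448, 32.6, 19.5 and 40.9 CPM in the jugular pools. DESeq2 also called Gpsm1 higher in positive than negative nodose neurons, at 17.7 and 20.6 CPM against 0.893 and 0.0209 CPM (adjusted p = 0.049; edgeR 0.591).

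Receptor kinases and arrestins end receptor signalling ahead of the alpha subunit. Of 8 genes, edgeR called none in any comparison, with at most 1 at an unadjusted p under 0.05. Adrbk1 (GRK2) was at 3.08 to 125 CPM and Arrb1 at 0.351 to 164 CPM. DESeq2 called Grk4 higher in nodose neurons of both selections together (adjusted p = 0.0814; edgeR 0.809), although the capsaicin-selected pools overlapped, at 23.6 and 85.8 CPM in nodose pools, against 34 and 11.7 CPM in jugular pools. Of the further alpha subunits, DESeq2 called Gna12 lower in positive than in negative nodose neurons, at 0.0309 and 0.0049 CPM against 23.6 and 55.9 CPM, and edgeR called none.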

How the data were processed

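The authors deposited raw read counts per gene symbol for each of the 10 pools. As their methods give it, cDNA was made directly from the cells with dT priming and amplified by PCR, and 50-base paired reads were aligned to mm10 with TopHat2 2.0.9 and Bowtie2 2.1.0.0 and counted with HTSeq, per the submitters' processing notes. The annotation and strand setting of the counting are not given in the sources used here. The counts carry no molecular identifiers and are not normalized.

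All 10 pools were used, grouped by the sample labels. Levels are CPM, counts over DESeq2 size factors of all 10 pools, scaled by the geometric mean of the totals. The test was edgeR 4.0.16's quasi-likelihood test in R 4.3.3 (TMM, filterByExpr, Benjamini-Hochberg adjustment over all genes tested), with the authors' thresholds of adjusted p at most 0.1, fold change at least 2 and CPM at least 10 in both pools of a group. The SE of an edgeR fit is the size of the log2 fold change over the square root of F, and that of a DESeq2 fit is the one DESeq2 gives. Each comparison of 2 groups was fitted to its 4 pools alone, and the fits to both selections used 8 pools with selection as a covariate, or its interaction with ganglion. DESeq2 1.42.0 was an alternative, as were other scalings, no filter, a replicate block and leaving out each pool. The scripts were tested on simulated counts. A level of 3 counts was taken as the floor, and such limits cover counting error only. Replicate pools differed by far more than sampling noise, so none was counted as a copy.

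The 10 genes and the lists of partners, effectors, regulators and cell type markers were chosen with earlier results of these data known. The text names all 10 genes, the 6 other alpha subunits, from each list the genes called by either tool in any comparison and the 2 with the highest mean CPM, and for the 2 members with the widest range the 3 genes of highest Pearson r. Gene models and sequences are of GENCODE vM21 (GRCm38, the build of mm10). The older symbol Ric8 was used where the list also held Ric8a, which has no row. One marker gene of the fixed lists is not reported here.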

Additional observations from a re-analysis of the deposited data

Results flagged for a closer look

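In the fit of the interaction of ganglion and selection, DESeq2 found a nodose over jugular difference that was not the same in the Trpv1 and the capsaicin selection for 7 of the listed partner genes, while edgeR called none of them and no gene at all. The log2 interaction (Trpv1 minus capsaicin selection) was 21.48 for Rgs2 (SE 3.66, adjusted p = 8.03e-07 by DESeq2 and 0.478 by edgeR), 11.26 for Gng12 (adjusted p = 0.000291), 10.16 for Rgs8 (adjusted p = 0.0249), 9.91 for Rgs7 (adjusted p = 0.00307), 8.81 for Adcy9 (adjusted p = 0.0984), 8.78 for Arhgef25 (adjusted p = 0.000229) and 4.26 for Kalrn (adjusted p = 0.0855), all adjusted by Benjamini-Hochberg in DESeq2. For each of the 7 genes both capsaicin-selected nodose pools were at 1.25 CPM or less and at least 1 capsaicin-selected jugular pool was above 10 CPM. Rgs2 was the one gene of these with nodose above jugular pools in the Trpv1 selection without overlap. In this fit DESeq2 called 1071 genes, 6.87% of all, and edgeR called 0, with 1233 at an unadjusted p under 0.05. Of the DESeq2 calls, 789 were positive, as for the 7 genes, and 282 were negative, so this direction was the common one over all genes. The capsaicin-selected nodose pools had fewer genes with a count than the jugular ones, as given above, and the part of this was not tested. The cause of the difference between the tools was not tested.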

How the results depend on the processing

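The direction of the Gna14 and Gnas differences between the ganglia was the same under all alternatives run: Gna14 stayed between -12.15 and -10.85 and Gnas between 0.78 and 1.66 in log2 fold change of nodose over jugular neurons. Which members were called depended on the setting. In the Trpv1 selection 1 member was called by DESeq2 (Gna14) and 1 with a replicate block (Gnas), and 0 with any pool left out. Within the capsaicin selection, 1 member (Gna14) was called by DESeq2, without the low-count filter and with a replicate block, and 0 to 1 with a pool left out (1, Gna14, without nodose replicate 1 or jugular replicate 2). For positive against negative nodose neurons 1 member (Gnas) was called without the filter. Over all genes, calls in the Trpv1 selection were 35, but 510 by DESeq2, 59 without the filter, 13 with a replicate block and 0 to 0 with a pool left out. For the capsaicin selection they were 0, but 707, 122, 20 and 0 to 29 (29, 26 and 18 without nodose replicate 1, jugular replicate 1 and jugular replicate 2). For positive against negative nodose neurons they were 6, but 390, 10, 1 and 0 to 0. In both selections together they were 69, but 1122, 222, 41 and 38 to 89 (38 and 44 without capsaicin-selected jugular replicate 2 and 1). For the interaction they were 0, but 1071 by DESeq2, 95 without the filter and 0 to 195 with a pool left out (195 without capsaicin-selected nodose replicate 1, and 15 or fewer without any other). Leaving out a pool leaves 1 group with a single pool, assumed to vary like the others. The main fits did not pair pools by replicate number. Deviations of same-numbered pools correlated at 0.00393, -0.00711 and -0.00744 over 6186, 5017 and 6463 genes. Replicate pools differed so widely that these values cannot tell whether the numbers mark animals. Of 512 alternative log2 fold changes of members, 41 moved by more than 1 SE, none of a called value changed sign, and 48 of 100 group levels and 17 of 20 class shares moved by more than 1 SD with another scale or length. Against the main scale, plain CPM shifted the median gene by -0.85 in the second capsaicin-selected nodose pool and by 0.10 to 0.71 in the others on the log2 scale. The cause of these differences was not tested.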
